A study of Homo sapiens with 18 samples.

Results

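The 10 genes described here encode proteins that switch growth factor signalling off. They are the MAP kinase phosphatases DUSP1, DUSP4, DUSP5 and DUSP6, the Sprouty proteins SPRY1, SPRY2 and SPRY4, the Sprouty-related proteins SPRED1 and SPRED2, and the receptor inhibitor ERRFI1. They were chosen by name, as the probe sets annotated to these symbols. Earlier results of these data were known at that time, so shares of all genes given beside their counts are no test of enrichment. Among the 18417 genes measured, 10 of 10 had 1 probe set of their own.

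Values came from 17 whole-transcript arrays of H295R cells, a steroid-making line from a human adrenocortical carcinoma, in 6 groups. GRα cells stably carry pcDNA4_GRα, coding for the glucocorticoid receptor isoform that binds ligand, and received dexamethasone (3 arrays), RU486 (2 arrays) or ethanol vehicle (3 arrays). Control cells (H295R_Control) stably carry the empty pcDNA4 vector and received dexamethasone, RU486 or vehicle (3 arrays each). Dexamethasone is a synthetic agonist of the receptor, and RU486 (mifepristone) is an antagonist or partial agonist; both were given at 100 nM for 6 h, after 24 h without serum in every group. Neither vector is inducible, all cells grew in medium with Zeocin, and each vector is represented by 1 stable line, so the receptor and any other difference between the lines cannot be told apart. One further array of GRα cells with RU486 failed quality control, per the labels, and has no values. Replicates are biological per the labels, but no label names separate cultures, so part of the spread behind the p-values may be technical.

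Growth factors bind receptor tyrosine kinases at the cell surface, which turn on RAS and then a chain of kinases ending in ERK. ERK and the related kinases p38 and JNK are active only while phosphorylated, and dual-specificity phosphatases of the DUSP family remove those phosphates. Several of the brakes are themselves transcribed in response to ERK and so form negative feedback. DUSP1 acts on p38, JNK and ERK in the nucleus, and it is a classical glucocorticoid-induced gene in many cell types. DUSP4 and DUSP5 are nuclear phosphatases, DUSP5 being selective for ERK, and DUSP6 acts on ERK in the cytoplasm. Sprouty proteins block signalling between receptors and RAS, SPRED proteins bring the RAS inhibitor neurofibromin to the membrane, and ERRFI1 (also called MIG6) binds the EGF receptor and its relatives and inhibits their kinase.

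The promoters of 3 of these genes are shown because ERRFI1 and DUSP6 were the members that dexamethasone raised, while DUSP1, the best-known glucocorticoid target among them, was not called. Each sequence is the coding strand from 250 bases before to 50 bases after the RefSeq transcription start (GRCh38.p14), which lies at base 251 of the window. Capitals mark matches to the motifs named below. The windows are chr1:8026260-8026559 (minus strand) for ERRFI1, chr12:89352452-89352751 (minus strand) for DUSP6 and chr5:172771146-172771445 (minus strand) for DUSP1.
ERRFI1: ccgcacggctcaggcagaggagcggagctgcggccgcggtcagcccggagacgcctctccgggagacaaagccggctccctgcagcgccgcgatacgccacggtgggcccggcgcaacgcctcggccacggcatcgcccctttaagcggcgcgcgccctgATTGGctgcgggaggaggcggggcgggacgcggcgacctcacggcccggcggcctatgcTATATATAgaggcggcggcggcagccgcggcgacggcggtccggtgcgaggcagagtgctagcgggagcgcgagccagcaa
DUSP6: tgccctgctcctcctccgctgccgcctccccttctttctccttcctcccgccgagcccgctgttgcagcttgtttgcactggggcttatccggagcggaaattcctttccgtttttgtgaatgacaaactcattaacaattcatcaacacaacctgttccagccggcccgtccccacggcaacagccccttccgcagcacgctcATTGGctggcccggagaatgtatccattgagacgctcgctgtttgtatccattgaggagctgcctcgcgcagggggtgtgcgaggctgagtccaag
DUSP1: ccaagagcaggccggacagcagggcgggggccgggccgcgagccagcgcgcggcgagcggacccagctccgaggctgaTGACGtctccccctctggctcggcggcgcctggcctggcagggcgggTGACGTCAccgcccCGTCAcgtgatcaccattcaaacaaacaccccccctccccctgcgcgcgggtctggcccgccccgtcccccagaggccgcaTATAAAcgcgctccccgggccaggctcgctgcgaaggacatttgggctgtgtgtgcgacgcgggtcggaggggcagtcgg

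RefSeq windows were available for 8 of the 10 genes, DUSP4 and DUSP5 being the others, and were searched on both strands for 9 motifs. The palindromic glucocorticoid response element, AGAACA and TGTTCT with 3 bases between them, was in 0 of the 8 windows and in 0.00366% of 27305 promoter windows of the same length. A relaxed form, GNACA and TGTNC with 3 bases between (0.388% of windows), and the single arm AGAACA (14.9%) were also in 0 of 8. DUSP1 held the cAMP response element TGACGTCA at −125 from its start, a motif in 1.98% of windows, and the TATA box TATAAA at −30 (12%). Its arm TGACG, which is contained in TGACGTCA, was in 4 of 8 windows (DUSP1, SPRY2, SPRY4 and SPRED2) and in 25% of all. ERRFI1 held TATATA in overlapping copies at −31 and −29 (4.25% of windows). It shared with DUSP6 the box CCAAT, read as ATTGG on the strand shown, at −90 in ERRFI1 and −46 in DUSP6 (35.7% of windows). TATATA and CCAAT were added after the windows had been seen. The ETS motif CCGGAAG was in 0 of 8 (10.7% of all). These matches are descriptions of letters in a 300-base window and say nothing about sites outside it.

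The deposited arrays had medians of 6.28 to 6.35 log2, which RMA brings together, so these do not show how bright the arrays were before processing. Correlations were 0.987 to 0.997 within a line and 0.971 to 0.977 between lines. NR3C1, the receptor gene, lay between 7.90 and 8.11 log2 (median 7.99) on the 8 GRα arrays and between 7.23 and 7.46 (median 7.38) on the 9 control arrays, without overlap. Whether this probe set can tell transgene from endogenous RNA was not tested. STAR (9.28 to 9.70 in GRα cells, 10.22 to 10.43 in control cells), CYP11A1 (10.09 to 10.43 and 9.96 to 10.24) and CYP17A1 (9.58 to 9.94 and 9.37 to 9.65), which act in steroid synthesis in the adrenal cell, lay well above the array medians in both lines. So did the adrenocortical markers SCARB1 (9.7 to 9.87 and 10.71 to 10.88), NR5A1 (8.16 to 9.03 and 8.45 to 9.14) and FDX1 (8.15 to 8.55 and 8.51 to 8.94). Some adrenocortical markers did not. MC2R (5.16 to 5.61 and 5.29 to 5.70) and CYP11B2 (5.13 to 5.55 and 5.04 to 5.54) were below the medians in both lines. CYP11B1 (5.89 to 6.24 and 5.96 to 6.44) was near them, as was INHA, with a median of 6.51 in GRα and 6.63 in control cells. HSD3B2, another steroidogenic enzyme, had 5.17 to 5.82 log2 in GRα cells and 6.82 to 7.55 in control cells, below the medians in GRα cells alone. GRα vehicle replicate B had the lowest array weight (0.19, against 0.65 to 2.3 for the others), and calls that change without it are given with and without it.

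**Figure D1:**
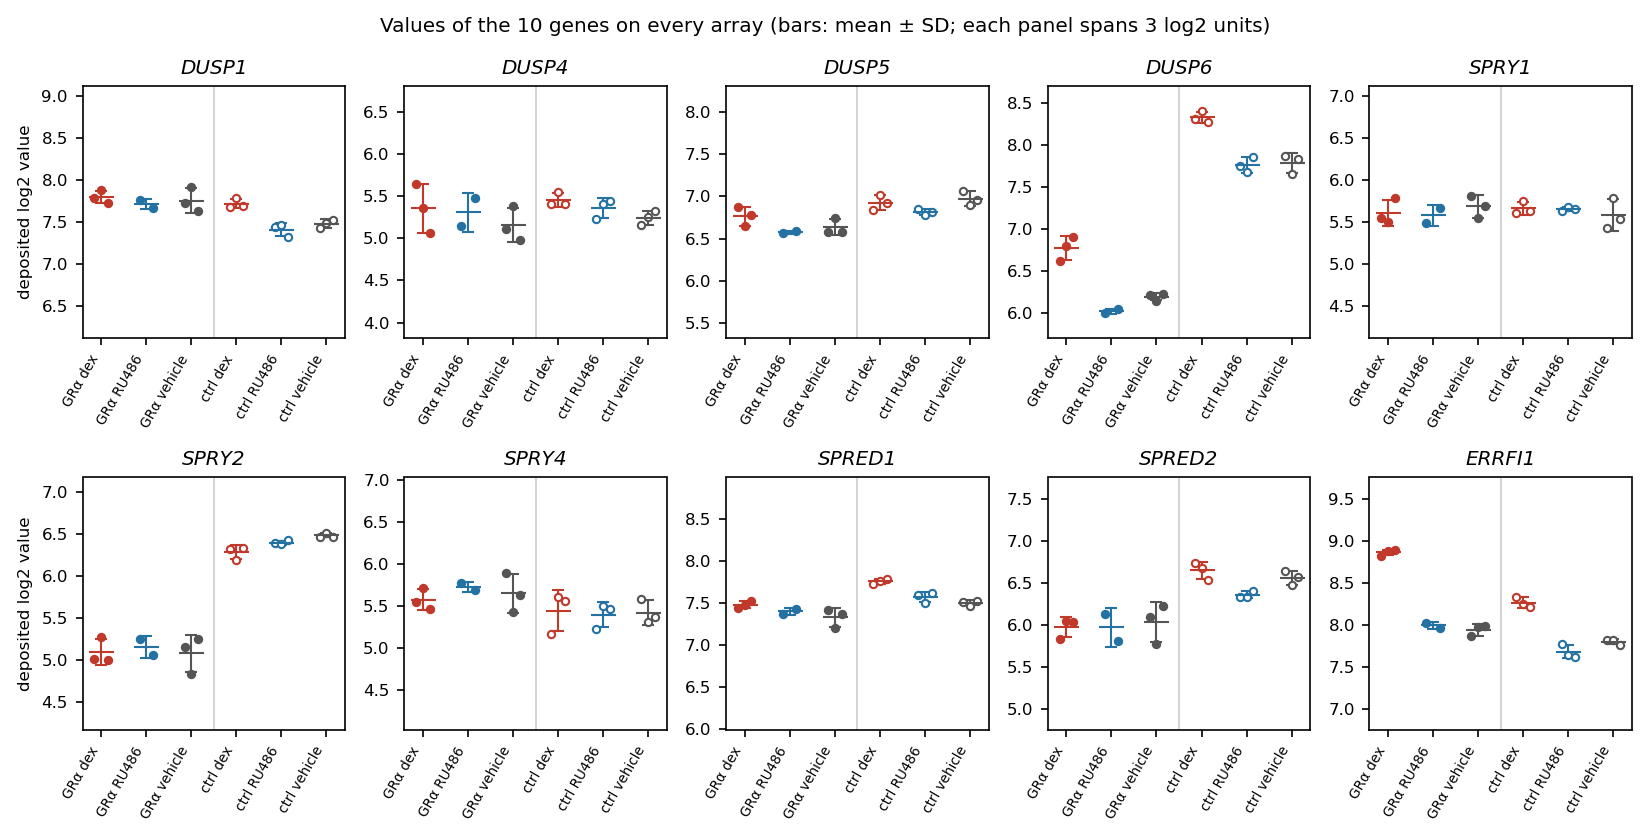
Deposited log2 values (y axis, each panel spanning 3 log2 units) of the 10 genes on all 17 arrays. Points are arrays, dashes with bars are group means ± SD, filled points are GRα cells and open points control cells, each in the order dexamethasone, RU486, vehicle. ERRFI1 and DUSP6 stand highest with dexamethasone within each line, and DUSP6, SPRY2 and SPRED2 are lower on every GRα array than on any control array.

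Dexamethasone against vehicle asks how the brakes respond to the agonist within 6 h. In GRα cells 2 of the 10 genes rose, ERRFI1 and DUSP6, and 0 fell by limma. The call used throughout is a Benjamini-Hochberg adjusted p under 0.05 over all 18417 genes, and 2.02% of all genes passed it in this comparison (1.36% higher, 0.662% lower). The 10 genes had a median difference of 0.09 log2, against −0.01 for all genes, and 7 of the 10 differences were positive. Values are of RNA from whole cultures, so a change in the share of responding cells and a change in RNA per cell cannot be told apart.

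ERRFI1 had 8.83, 8.88 and 8.89 log2 in GRα cells with dexamethasone, against 7.86, 7.98 and 7.99 with vehicle. No dexamethasone array came near the vehicle arrays, and the spread within each group was small beside the gap. The difference was 0.92 ± 0.06 log2 (SE, 1.89-fold, 95% confidence interval 0.79 to 1.05, limma adjusted p = 1.12e-07), the 17th highest of the 18417 genes.

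DUSP6 had 6.62, 6.80 and 6.91 log2 in GRα cells with dexamethasone, against 6.21, 6.15 and 6.23 with vehicle. Every dexamethasone array was above every vehicle array, with replicate A the nearest. The difference was 0.58 ± 0.08 log2 (SE, 1.5-fold, interval 0.41 to 0.75, limma adjusted p = 0.000414), the 66th highest. Both calls held under each of the 7 other settings and without each of the 17 arrays in turn.

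DUSP1 had 7.79, 7.88 and 7.73 log2 in GRα cells with dexamethasone, against 7.72, 7.92 and 7.63 with vehicle. The arrays of the groups overlapped only through vehicle replicate B (7.92), the array of lowest weight. The other vehicle arrays lay below the dexamethasone arrays, the nearest at 7.72 against 7.73. With all arrays, the DUSP1 difference was 0.04 ± 0.08 log2 with an interval of −0.12 to 0.20 (limma adjusted p = 0.823). In that fit a rise of the size seen for DUSP6 lay outside the interval. DUSP1 was not called without replicate B either.

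The remaining 7 genes were not called in GRα cells. Their differences ran from −0.08 (SPRY1 and SPRY4) to 0.20 (DUSP4, interval −0.07 to 0.47). SPRED1 came nearest to the threshold, with 7.44, 7.48 and 7.52 log2 with dexamethasone against 7.41, 7.19 and 7.37 with vehicle. The low vehicle value of 7.19 was that of replicate B, the array of lowest weight. These arrays did not overlap, as was so for 15.8% of all genes, and the difference of 0.15 ± 0.06 log2 had a limma adjusted p of 0.273. Intervals for the 3 Sprouty genes were −0.28 to 0.13 (SPRY1), −0.19 to 0.22 (SPRY2) and −0.35 to 0.19 (SPRY4).

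In control cells, which hold the receptor at the line's own level, the same comparison called 2 of the 10 genes, again DUSP6 and ERRFI1, both higher and 0 lower by limma. Here 0.261% of all genes were called, 0.212% higher and 0.0489% lower. The median of the 10 genes was 0.15 log2, against −0.01 for all genes. The comparisons in the 2 lines share no array, though both draw on 1 estimate of each gene's spread.

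DUSP6 had 8.31, 8.41 and 8.28 log2 in control cells with dexamethasone, against 7.87, 7.65 and 7.84 with vehicle. The difference was 0.54 ± 0.08 log2 (SE, 1.46-fold, interval 0.37 to 0.71, limma adjusted p = 0.00484), the 14th highest of all genes. The arrays of the groups were well apart, with no overlap.

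ERRFI1 had 8.34, 8.25 and 8.21 log2 in control cells with dexamethasone, against 7.82, 7.82 and 7.77 with vehicle. This gave 0.46 ± 0.06 log2 (SE, 1.38-fold, interval 0.33 to 0.59, limma adjusted p = 0.00167), the 21st highest. The lowest dexamethasone array was above the highest vehicle array.

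SPRED1 and DUSP1 were also apart in control cells without being called. SPRED1 had 7.73, 7.76 and 7.78 log2 with dexamethasone against 7.50, 7.46 and 7.52 with vehicle, and DUSP1 had 7.68, 7.78 and 7.69 against 7.42, 7.49 and 7.53. Neither gene's arrays overlapped, which 12.7% of all genes also showed. The differences were 0.26 ± 0.06 (SPRED1, limma adjusted p = 0.172) and 0.24 ± 0.08 log2 (DUSP1, interval 0.08 to 0.40, adjusted p = 0.498). SPRED1 was called when GRα vehicle replicate B, an array of the other line that touches this comparison only by the pooled variance, was left out (limma adjusted p = 0.0301), and with array weights (0.0141). SPRY2 was lower on all 3 dexamethasone arrays (6.32, 6.19 and 6.34) than on the vehicle arrays (6.47, 6.51 and 6.47) and was not called (−0.20 ± 0.10 log2, unadjusted p = 0.0526). Differences of the other 5 genes were −0.05 (DUSP5) to 0.21 (DUSP4).

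The size of the dexamethasone response was compared between the lines as a difference of differences. By limma 0 of the 10 genes were called, against 0.0652% of all genes, and 7.39% of all genes had an unadjusted p under 0.05. ERRFI1 responded more in GRα cells by 0.46 ± 0.09 log2 (interval 0.27 to 0.64), with a limma adjusted p of 0.0674. It was the only member with an unadjusted p under 0.05 (6.49e-05). Its adjusted p was 0.0379 with the dimmest 25% of genes left out, 0.0272 with trend and robust estimation, 0.0306 with array weights, 0.218 with only the groups compared, and 0.0712 to 0.254 without 1 array. For DUSP6 the difference was 0.04 ± 0.11 log2 (interval −0.20 to 0.28), and for DUSP1 it was −0.20 ± 0.11 (interval −0.42 to 0.03). The DUSP1 value includes GRα vehicle replicate B, its highest vehicle array.

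**Figure D2:**
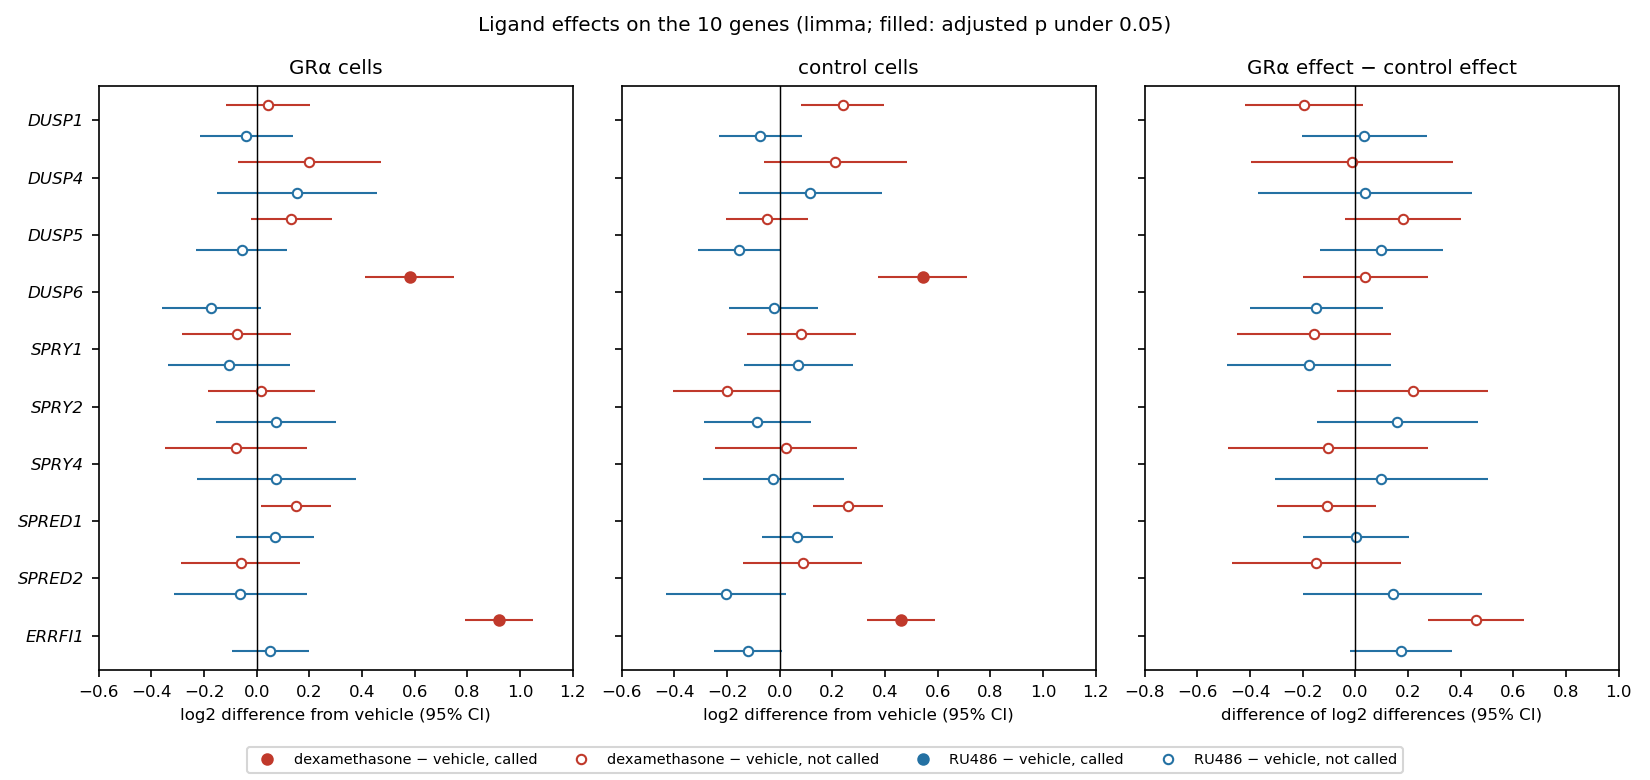
Log2 differences from vehicle (x axis, with 95% confidence intervals) of the 10 genes for dexamethasone (red) and RU486 (blue) in GRα cells (left) and control cells (middle), and the GRα effect minus the control effect (right). Filled points had a limma adjusted p under 0.05. The filled points are those of DUSP6 (0.58 and 0.54) and ERRFI1 (0.92 and 0.46) with dexamethasone.

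The RU486 comparison asks what the antagonist does without an added agonist. Steroid made by the cells themselves was not measured here. By limma 0 of the 10 genes were called in GRα cells and 0 in control cells, and 0% of all genes were called in either line. At an unadjusted p under 0.05 stood 8.54% of all genes in GRα cells and 3.37% in control cells, among them 1 of the 10, DUSP5 in control cells (limma unadjusted p = 0.0492). ERRFI1 had 8.02 and 7.97 log2 with RU486 in GRα cells, one array above and the other within the range of the vehicle arrays, and the difference of 0.05 ± 0.07 log2 was not called. In control cells it had 7.77, 7.65 and 7.62 log2 with RU486 (−0.12 ± 0.06).

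DUSP6 had 6.00 and 6.05 log2 in GRα cells with RU486, against 6.21, 6.15 and 6.23 with vehicle. Both RU486 arrays lay below all vehicle arrays, as was so, in one direction or the other, for 20.4% of all genes. The difference of −0.17 ± 0.09 log2 was not called (interval −0.36 to 0.02, limma adjusted p = 0.608). In control cells the RU486 arrays (7.75, 7.68 and 7.87) overlapped the vehicle arrays, and the difference was −0.02 ± 0.08. Set against each other, the RU486 effects of the lines gave 0 calls among the 10 genes and 0% of all genes by limma, with 4.05% of all genes at an unadjusted p under 0.05, and the members ran from −0.18 (SPRY1) to 0.17 log2 (ERRFI1).

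Dexamethasone and RU486, steroids that bind the same receptor, were given at the same dose and time and were set against each other in each line, which makes 2 comparisons. They share the dexamethasone arrays with the comparisons above. ERRFI1 and DUSP6 were higher with dexamethasone in both lines, so 2 of 10 genes were called each time and 0 were lower by limma. Of all genes, 0.896% were called in GRα cells (0.744% higher, 0.152% lower) and 0.364% in control cells (0.288% higher, 0.076% lower). Arrays did not overlap for 4 of the 10 in GRα cells and 6 in control cells, against 26.9% and 14.4% of all genes.

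In GRα cells ERRFI1 was higher with dexamethasone than with RU486 by 0.87 ± 0.07 log2 (1.82-fold, interval 0.72 to 1.01, limma adjusted p = 1.34e-06), and DUSP6 by 0.75 ± 0.09 (1.69-fold, 0.56 to 0.94, adjusted p = 0.000134). In control cells the differences were 0.58 ± 0.06 for ERRFI1 (1.5-fold, 0.45 to 0.71, limma adjusted p = 8.32e-05) and 0.57 ± 0.08 for DUSP6 (1.48-fold, 0.40 to 0.73, adjusted p = 0.00219). DUSP1 in control cells had 7.68, 7.78 and 7.69 log2 with dexamethasone against 7.44, 7.47 and 7.32 with RU486. These arrays did not overlap, and the difference of 0.31 ± 0.08 log2 was not called (limma adjusted p = 0.115). It was called without GRα vehicle replicate B (0.0241) and with array weights (0.00423). In GRα cells DUSP1 differed by 0.08 log2 between the ligands, with an interval of −0.10 to 0.26.

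DUSP5 has a pseudogene, DUSP5P1, that resembles it in sequence, so their signals may not be independent. In GRα cells DUSP5P1 had 5.90, 5.59 and 5.58 log2 with dexamethasone, 5.93 and 5.95 with RU486, and 6.37, 6.11 and 6.44 with vehicle. It fell by 0.61 ± 0.10 log2 with dexamethasone (limma adjusted p = 0.00196), a call lost with only the groups compared (0.0866). With its 2 probe sets averaged the fall was 0.35 ± 0.06 log2 and was still called. DUSP5 itself had 6.87, 6.64 and 6.78 log2 with dexamethasone, 6.56 and 6.59 with RU486 and 6.57, 6.74 and 6.58 with vehicle. DUSP5 was not called (0.13 ± 0.07 log2 with dexamethasone, interval −0.02 to 0.29).

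GRα cells against control cells in the same treatment asks whether the brakes stand at other levels in the receptor line. Between the lines DUSP6 and SPRY2 were lower in GRα cells by more than 1 log2 and SPRED2 by less, in all 3 treatments. In vehicle 6 of the 10 genes were called, 1 higher (DUSP1) and 5 lower (DUSP6, SPRY2, SPRED2, DUSP5 and SPRED1), where 33.4% of all genes were called, 15% higher and 18.3% lower. With dexamethasone 5 were called, 1 higher (ERRFI1) and 4 lower (DUSP6, SPRY2, SPRED2 and SPRED1), against 33.3% of all genes (15.7% higher, 17.6% lower). With RU486 6 were called, 2 higher (DUSP1 and ERRFI1) and 4 lower (DUSP6, SPRY2, SPRED2 and DUSP5), against 29.2% (13.1% higher, 16.2% lower). The median of the 10 genes was −0.13, −0.13 and −0.12 log2 in vehicle, with dexamethasone and with RU486, and for all genes it was 0.01, −0.02 and −0.01. Arrays of the lines did not overlap for 7 of the 10 genes in vehicle, 5 with dexamethasone and 8 with RU486, against 40.5%, 45.6% and 54.8% of all genes. In all, 3 genes were lower in every treatment, 7 were called in at least 1, and DUSP4, SPRY1 and SPRY4 were called in none. The matching shares of all genes were not counted, so whether these numbers are unusual was not tested.

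DUSP6 lay between 6.00 and 6.91 log2 (median 6.22) on the 8 GRα arrays and between 7.65 and 8.41 (median 7.87) on the 9 control arrays. The highest GRα array, one with dexamethasone, was below the lowest control array. In vehicle the difference was −1.59 ± 0.08 log2 (SE, 3.02-fold lower, limma adjusted p = 6.84e-11), with dexamethasone −1.55 ± 0.08 and with RU486 −1.74 ± 0.09. From low to high, the group means were 6.03 ± 0.03 in GRα cells with RU486, 6.20 ± 0.04 in GRα cells with vehicle, 6.78 ± 0.15 in GRα cells with dexamethasone, 7.77 ± 0.09 in control cells with RU486, 7.79 ± 0.12 in control cells with vehicle and 8.33 ± 0.07 in control cells with dexamethasone (SD, n = 3, and n = 2 for the first). Within each line RU486 and vehicle did not pass the test as neighbours, and dexamethasone passed it against both. GRα cells with dexamethasone were not tested against control cells with RU486, and those arrays did not overlap.

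SPRY2 lay between 4.83 and 5.28 log2 (median 5.11) on the GRα arrays and between 6.19 and 6.51 (median 6.39) on the control arrays. No array of one line reached the range of the other. In vehicle it was 2.64-fold lower in GRα cells (−1.40 ± 0.10 log2, limma adjusted p = 3.55e-09), with dexamethasone 2.27-fold and with RU486 2.37-fold. The GRα values are near the lower quartile of an array (4.94 to 5.05), and detection above background was not tested.

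SPRED2 had 5.77 to 6.22 log2 (median 6.04) on the GRα arrays and 6.33 to 6.74 (median 6.53) on the control arrays, without overlap. The difference was −0.53 ± 0.11 log2 in vehicle (limma adjusted p = 0.000845), −0.68 ± 0.11 with dexamethasone (7.48e-05) and −0.39 ± 0.12 with RU486 (0.0206). The RU486 difference was −0.22 without GRα RU486 replicate C (adjusted p = 0.319) and −0.36 without control RU486 replicate C (0.0612).

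The smaller line differences depended more on single arrays. DUSP5 had 6.57, 6.74 and 6.58 log2 in vehicle-treated GRα cells against 7.07, 6.90 and 6.96 in vehicle-treated control cells, a difference of −0.34 ± 0.07 (limma adjusted p = 0.0014). With RU486 it was −0.24 ± 0.08 (0.0335), a call lost without any 1 of 4 arrays (GRα RU486 B or C, control RU486 A or C, up to 0.153). SPRED1 in vehicle (−0.17 ± 0.06, adjusted p = 0.0466) was called in 3 of 17 fits without 1 array and was −0.11 without GRα vehicle replicate B (0.162). With dexamethasone SPRED1 differed by −0.28 ± 0.06 (0.00208).

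DUSP1 had 7.72, 7.92 and 7.63 log2 in vehicle-treated GRα cells, the 7.92 being that of replicate B, the array of lowest weight. Vehicle-treated control cells had 7.42, 7.49 and 7.53. DUSP1 was higher in GRα cells by 0.27 ± 0.08 log2 (1.21-fold, limma adjusted p = 0.00869, or 0.0555 with only the groups compared). With RU486 it was 0.31 ± 0.08 higher (0.00954), or 0.26 without GRα RU486 replicate B (0.10). With dexamethasone its difference was 0.08 ± 0.08 (interval −0.08 to 0.24). ERRFI1 differed between the lines by 0.60 ± 0.06 log2 with dexamethasone (limma adjusted p = 5.04e-07), 0.32 ± 0.07 with RU486 (0.00183) and 0.14 ± 0.06 in vehicle (0.0871). Without GRα vehicle replicate A the ERRFI1 difference in vehicle was 0.18 (0.0483). From high to low, its group means were 8.86 ± 0.03 in GRα cells with dexamethasone, 8.26 ± 0.07 in control cells with dexamethasone, 7.97 and 8.02 on the 2 arrays of GRα cells with RU486, 7.94 ± 0.07 in GRα cells with vehicle, 7.80 ± 0.03 in control cells with vehicle and 7.68 ± 0.08 in control cells with RU486 (SD, n = 3, with no mean given for the pair of arrays). The lower 4 groups were neighbours that did not pass the test, and control cells with dexamethasone were not tested against GRα cells with RU486. The line comparison in vehicle and the dexamethasone comparisons share the vehicle arrays.

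DUSP4, SPRY1 and SPRY4 showed no called difference in any of these comparisons. DUSP4 ranged over 4.99 to 5.64 log2 on all 17 arrays, SPRY1 over 5.42 to 5.81 and SPRY4 over 5.17 to 5.90. SPRY4 with RU486 came nearest, at 0.33 ± 0.14 log2 higher in GRα cells (limma adjusted p = 0.0963).

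**Figure D3:**
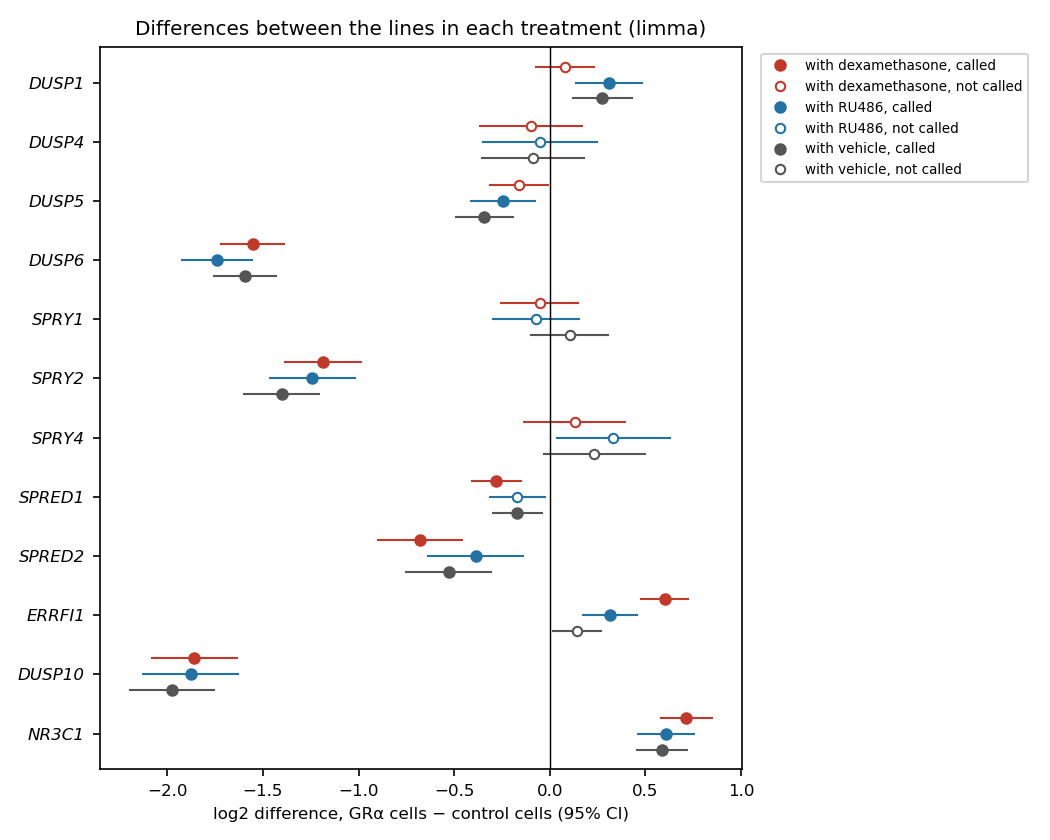
Log2 differences of GRα cells from control cells (x axis, with 95% confidence intervals) for the 10 genes and, for comparison, DUSP10 and NR3C1, with dexamethasone (red), RU486 (blue) and vehicle (grey). Filled points had a limma adjusted p under 0.05. DUSP6, SPRY2 and DUSP10 lie left of −1 in every treatment, and of the 10 genes ERRFI1 lies furthest right, with dexamethasone (0.60).

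Beside the line differences, 26 of 28 markers of other cell types were measured. In vehicle 5 were higher and 0 lower in GRα cells, with a median of 0.12 log2, where 15% of all genes were higher and 18.3% lower. Summed over each list on the linear scale, epithelial markers were at 800 to 958 in GRα cells and 660 to 754 in control cells, chromaffin markers at 263 to 329 and 249 to 272, and fibroblast markers at 373 to 486 and 365 to 412. Endothelial markers were at 175 to 195 and 158 to 192, leukocyte markers at 194 to 238 and 207 to 231, and adrenocortical markers, 11 of 12 measured, at 4554 to 4972 and 5633 to 6363. Their part in the line differences was not tested. EPCAM (7.75 to 8.45 log2 in GRα cells and 7.17 to 8.03 in control cells) was among the brightest of the 5 epithelial markers. So was KRT18 (8.16 to 8.68 and 8.03 to 8.54). Each had 2 probe sets, and whether those used read these genes alone was not tested. With dexamethasone against vehicle 0 of the 26 rose and 1 fell in GRα cells, and 0 were called in control cells by limma. Of all genes, 2.02% and 0.261% were called in these comparisons.

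The rest of the pathway was read in 7 lists with 75 of 85 genes measured. With dexamethasone these genes were mostly not called. In GRα cells 1 rose and 1 fell (2.67% of the 75, against 2.02% of all genes). In control cells 0 rose and 1 fell (1.33%, against 0.261% of all genes). Both called genes are in the list of ERK output genes, whose transcription follows ERK activity. EPHA4, an ephrin receptor, had 5.99, 6.14 and 6.03 log2 in GRα cells with dexamethasone against 5.42, 4.92 and 5.21 with vehicle. It rose by 0.87 ± 0.11 (limma adjusted p = 0.000142). Its lowest vehicle value, 4.92, was from replicate B, the array of lowest weight, and near an array's lower quartile (4.94 to 5.05). PHLDA1, a pleckstrin-homology-like protein, had 9.13, 9.14 and 9.10 log2 in GRα cells with dexamethasone against 9.61, 9.60 and 9.65 with vehicle. It fell by 0.50 ± 0.06 log2 in GRα cells (adjusted p = 9.79e-05) and by 0.31 ± 0.06 in control cells (0.033), where the call was kept in 5 of 17 fits without 1 array (up to 0.247, without control vehicle replicate C). The other 10 ERK output genes, the ETS factors ETV4 and ETV5 and cyclin D1 (CCND1) among them, were not called.

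Against RU486 the counts were 1 higher and 1 lower in each line (2.67% of the 75). Of all genes, 0.896% were called in GRα cells and 0.364% in control cells. In GRα cells EPHA4 was 0.83 ± 0.12 log2 higher with dexamethasone (limma adjusted p = 0.00116; 0.0551 without GRα RU486 replicate C) and PHLDA1 was lower (−0.45 ± 0.07, 0.00117; 0.0555 with only the groups compared). In control cells FGFR1, a fibroblast growth factor receptor, was 0.53 ± 0.10 higher (0.03; up to 0.22 without 1 array), and PHLDA1 was lower (−0.37 ± 0.06, 0.00745; 0.063 without control dexamethasone replicate C and 0.0588 without control RU486 replicate B). RU486 against vehicle called 0 of the 75 genes in either line by limma.

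Between the lines, 35 of the 75 pathway genes (46.7%) were called in vehicle, 12 higher and 23 lower in GRα cells. Of all genes, 33.4% were called there (15% higher, 18.3% lower), and this also stands beside the counts by list that follow. With dexamethasone 30 of the 75 were called (40%, 10 higher and 20 lower), against 33.3% of all genes. With RU486 26 were called (34.7%, 8 higher and 18 lower), against 29.2% of all genes. DUSP10, a phosphatase of p38 and JNK, had 5.44 to 6.12 log2 (median 5.66) on the GRα arrays and 7.32 to 7.87 (median 7.63) on the control arrays. It was 3.93-fold lower in vehicle (−1.98 ± 0.11 log2, limma adjusted p = 1.89e-10), and of the 6 other MAP kinase phosphatases DUSP7 was lower too (−0.39 ± 0.08).

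Of 9 genes of the p38 and JNK core, 0 were higher and 4 lower in GRα cells in vehicle, namely the kinase MAP2K6 (−0.90 ± 0.07), the JNK genes MAPK8 (−0.84 ± 0.07) and MAPK9 (−0.51 ± 0.07) and the JNK activator MAP2K4 (−0.35 ± 0.07). Of 12 genes of the RAS to ERK core, 1 was higher, the ERK activator MAP2K1 (0.76 ± 0.07), and 6 were lower, led by MAPK3, which encodes an ERK (−0.44 ± 0.07), and the RAS exchange factors SOS1 (−0.42 ± 0.07) and SOS2 (−0.34 ± 0.07). Of 12 ERBB and FGF ligands, HBEGF (0.50 ± 0.14) and FGF2 (0.26 ± 0.10) were higher, and FGF9 (−1.04 ± 0.12), NRG1 (−0.74 ± 0.08) and EGF (−0.53 ± 0.07) lower. FGF2 was at an adjusted p of 0.0499 and kept its call in 6 of 17 fits without 1 array, and HBEGF in 16.

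Of 13 growth factor receptors 5 were higher, led by IGF1R (0.96 ± 0.10), and 3 lower, which were FGFR4 (−0.67 ± 0.07), INSR (−0.46 ± 0.09) and EGFR (−0.40 ± 0.07). EGFR, a receptor that ERRFI1 inhibits, stood at −0.69 ± 0.07 log2 in GRα against control cells when both had dexamethasone (limma adjusted p = 3.58e-07). The dexamethasone effect on EGFR differed between the lines by −0.30 ± 0.10 log2, which was not called (limma adjusted p = 0.482). Among 12 ERK output genes 4 were higher, led by PHLDA1 (0.69 ± 0.06), FOS (0.45 ± 0.08) and EGR1 (0.43 ± 0.08), and 2 lower, EPHA4 (−0.39 ± 0.11; adjusted p = 0.0551 without GRα vehicle replicate B) and ETV1 (−0.36 ± 0.06). Of 11 other feedback inhibitors 0 were higher and 3 lower, LRIG2 (−0.38 ± 0.08), SPRY3 (−0.37 ± 0.10) and PEBP1 (−0.17 ± 0.06, called in 9 of 17 fits without 1 array).

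Between the lines with dexamethasone, the called genes of the lists were 0 higher and 2 lower of the 6 phosphatases, 0 and 2 of the 11 other feedback inhibitors, and 0 and 4 of the 9 p38 and JNK genes. They were 1 higher and 4 lower of the 12 RAS to ERK genes, 3 and 3 of the 12 ligands, 3 and 4 of the 13 receptors, and 3 and 1 of the 12 ERK output genes. With RU486 they were 0 and 2 of the phosphatases, 0 and 2 of the feedback inhibitors, 0 and 3 of the p38 and JNK genes, 2 and 4 of the RAS to ERK genes, 1 and 3 of the ligands, 2 and 3 of the receptors, and 3 and 1 of the output genes. Of all genes, 15.7% were higher and 17.6% lower with dexamethasone, and 13.1% and 16.2% with RU486. DUSP10 was lower in both treatments (−1.86 ± 0.11 with dexamethasone and −1.88 ± 0.12 log2 with RU486).

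**Figure D4:**
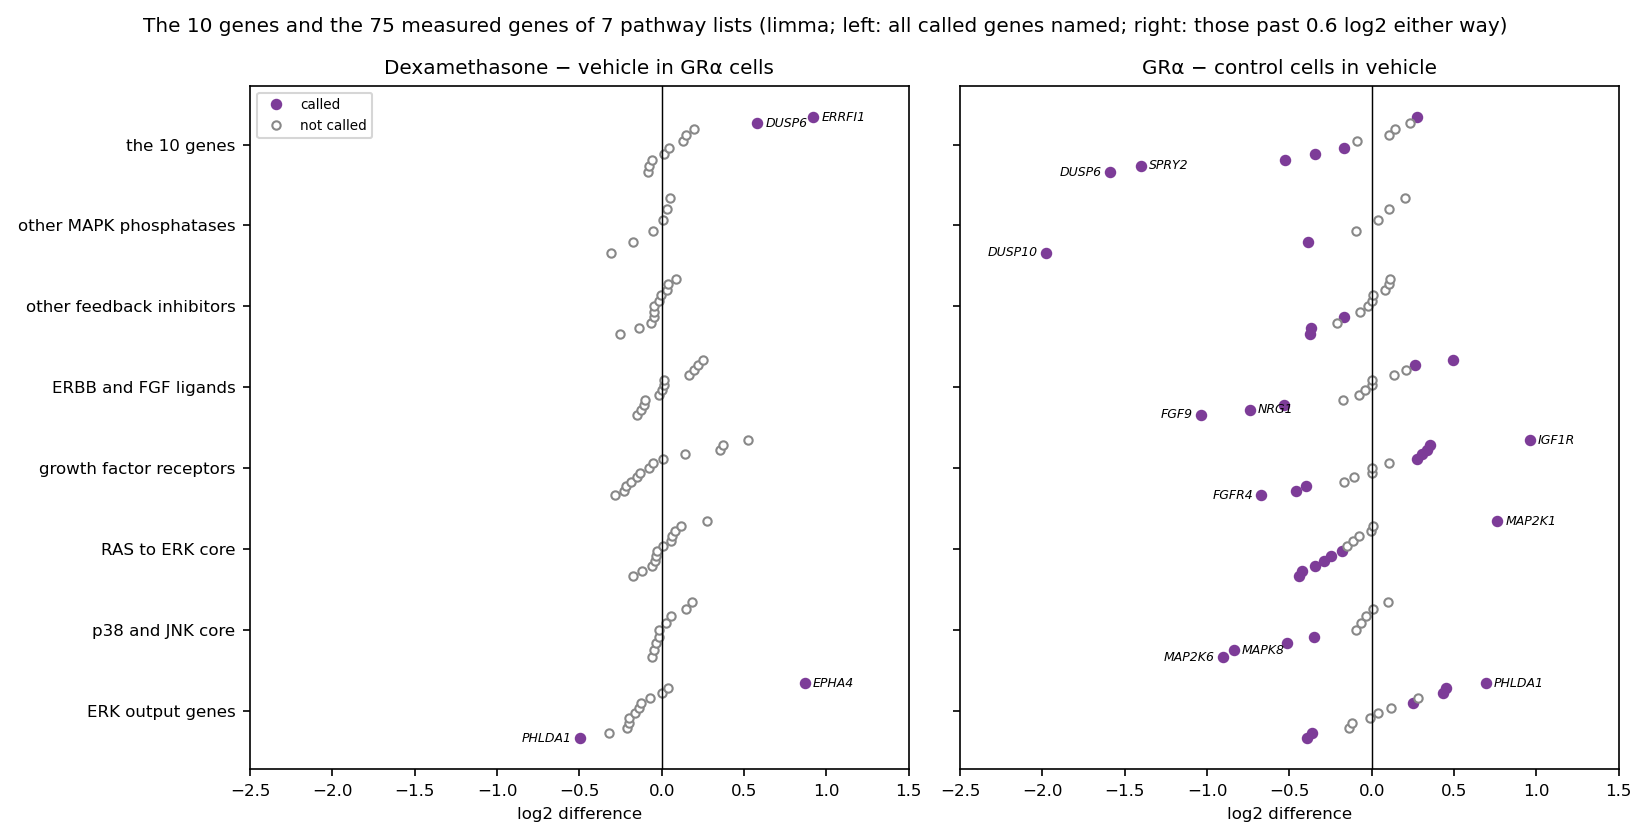
Log2 differences (x axis) of the 10 genes and of 75 other pathway genes in 7 lists, for dexamethasone minus vehicle in GRα cells (left) and GRα minus control cells in vehicle (right). Each point is a gene, and filled points had a limma adjusted p under 0.05. On the left the filled points are ERRFI1, DUSP6, EPHA4 and PHLDA1, and on the right DUSP10 (−1.98) and DUSP6 (−1.59) lie furthest to the left.

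Genes with the most similar pattern to the called members were sought over the 17 arrays, each taken relative to the mean of its line. For ERRFI1 they were MEIS1 (r = 0.991), OR7A5 (0.983) and ZBTB16 (0.981), and for DUSP6 REV3L (0.961), IL1RAP (0.953) and SLC26A2 (0.952). ERRFI1 and DUSP6 correlated with each other at 0.921, and DUSP6 with SPRED1 at 0.787, against 0.57 for DUSP6 with DUSP1. The points share 17 libraries in 6 groups, so these values describe likeness across treatments and carry no test.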

How the data were processed

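RNA was measured on Affymetrix whole-transcript arrays. The authors deposited log2 values for 29153 probe sets; the processing notes of the submitters name RMA, which background-corrects, quantile-normalizes and summarises probes, and limma. The sources used here give no version, setting or genome build. Quantile normalization hides a shift of most RNAs one way. Values existed for 17 of 18 arrays, and the 2 or 3 arrays in a group limit the precision.

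Probe sets were named by the platform annotation, with symbols updated by Entrez number (19429 of 19460 with 1 symbol matched). Those with several symbols (1754) or none (7939) were left out. For 769 genes with several probe sets the one of highest mean was used, leaving 18417 genes. Listed genes without a probe set of their own are not analysed here.

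One limma fit (version 3.58.1, R 4.3.3) with a mean per group over all 17 arrays gave 11 contrasts, with 11 residual degrees of freedom and 5.89 from the prior. Each test was two-sided. Errors of differences are standard errors. The code was also run on simulated data with independent noise, equal on every array, and no difference between the lines. Those settings differ from these arrays, so the run does not show how well the fit performs here. Named genes are the 10 members in every comparison, called genes of 7 pathway lists (up to 4 per list between lines) and the 3 most alike genes of each member called with dexamethasone. Members and lists were chosen with earlier results of these data known. Settings tried were median centring, leaving out the dimmest 25% of genes, trend and robust estimation, array weights, the mean of a gene's probe sets, the replicate letter as a block, only the groups compared, and leaving out each array.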

Additional observations from a re-analysis of the deposited data

Results flagged for a closer look

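The dexamethasone effect on ZBTB16, a zinc finger gene whose pattern was among the 3 most like that of ERRFI1, was larger in GRα than in control cells by 1.07 log2 in a direct test of the difference between the lines. Its values were 8.78 ± 0.08 log2 with dexamethasone and 6.29 ± 0.04 with vehicle in GRα cells, against 7.61 ± 0.04 and 6.20 ± 0.18 in control cells (SD, n = 3 each).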

How the results depend on the processing

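Median centring, leaving out the dimmest 25% of genes, trend and robust estimation, array weights, the mean of a gene's probe sets, a replicate block, fitting only the groups compared and leaving out each array turned no called member or pathway gene around. The number of members with a line difference in the dexamethasone effect, 0 as reported, was 1 (ERRFI1) with the dimmest 25% left out, with trend and robust estimation and with array weights. Without 1 array, the members called numbered 2 in every fit for dexamethasone against vehicle or RU486 in GRα cells, 2 to 3 for each in control cells, 0 for RU486 against vehicle and for both differences between lines, and 5 to 7, 5 and 4 to 7 for GRα against control cells in vehicle, with dexamethasone and with RU486. Under the other settings the line comparisons called 4 to 6, 5 to 6 and 5 to 8. Calls of all genes moved more: 77 to 601 (372 as reported) for dexamethasone in GRα cells, 17 to 148 (48) in control cells, 5 to 22 (12) for their difference, and 54 to 259 (165) and 29 to 214 (67) for dexamethasone against RU486 in GRα and control cells; the lowest count in GRα cells came from fitting only the groups compared, and the other causes were not tested. Deviations from group means had a median correlation of −0.014 over 40 pairs of the same replicate letter and 0.016 over 80 of different letters. These pairs mix both lines. Between control groups, same-letter pairs ran from −0.024 to 0.324 and different-letter pairs from −0.366 to 0.274. Between GRα groups they ran from −0.092 to 0.105 and from −0.127 to 0.184. Whether the letters mark shared variation in the control line was not tested, and the main fit has no block. With the replicate block the members called were 2 for each dexamethasone comparison and 6, 5 and 5 between the lines in vehicle, with dexamethasone and with RU486, DUSP5 with RU486 having an adjusted p of 0.0639 by limma. DUSP5P1 fell by 0.35 log2 with dexamethasone in GRα cells when its probe sets were averaged. Signal over background limits SPRY2, DUSP4 and other genes near the lower quartile of an array.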
